A study of Saccharomyces cerevisiae with 4 samples.

Results

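Transcripts of 57 nucleolar ribosome assembly factors were compared between a yeast strain labelled as a YGP1 deletion and its parental strain. The 57 genes were listed by name, as proteins of the small-subunit processome, assembly factors of the large subunit and the RNA polymerase I factor RRN3, by a rule that uses no measured value but was written with earlier results of these data known. All 57 are among the 6484 features of the authors' deposited table. The deletion strain carries the labels' genotype BGL-6Kl with ΔYGP1, and the parent carries BGL-6Kl alone, so that whatever BGL-6Kl stands for is common to both strains of Saccharomyces cerevisiae. Cells without further treatment were shaken at 200 rpm and 30 °C in YPD, a rich medium with glucose, and harvested after 48 h, chosen because a difference in BGL activity between the strains was first seen then. Total RNA was sequenced in 2 libraries per strain, described by the submitters as biological replicates.

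Ribosome assembly starts in the nucleolus, where RNA polymerase I makes a long precursor of the ribosomal RNAs. The small-subunit processome, a large particle built around the U3 small nucleolar RNA, packs onto the emerging precursor and helps to fold, modify and cleave it, while a second set of factors gathers on the part that becomes the large subunit. In budding yeast the genes of these factors are known to be transcribed together with growth and to be turned down when nutrients run short. Many carry a pair of promoter elements, PAC and RRPE. The repressors Tod6 and Dot6 bind PAC, and Stb3 binds RRPE.

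The promoter letters of these genes are given first, because most members carry the pair of elements. The sequences come from the RefSeq R64 genome and annotation of strain S288C. They were not read in the strains compared here, and the build behind the authors' table is not given in the sources used here. The 300 bases before each start codon were searched on both strands for GATGAG, the core of PAC, and for AAAATTT, the core of RRPE. The 5 members with the largest falls in strain mean are shown with RRN3, IMP4 and NOP16, and each stretch runs 5′ to 3′ along the gene's strand from 10 bases before the first match to 10 bases after the last. Capitals mark the matches, with CTCATC and AAATTTT being the same cores read on the other strand.
NOP13, chrXIV:308696-308750, minus strand: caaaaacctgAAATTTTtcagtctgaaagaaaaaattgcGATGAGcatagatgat
NSA2, chrV:414295-414422, minus strand: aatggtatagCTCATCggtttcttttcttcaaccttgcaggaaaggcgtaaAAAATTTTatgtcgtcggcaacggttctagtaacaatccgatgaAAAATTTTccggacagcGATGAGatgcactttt
NOP56, chrXII:545915-546004, plus strand: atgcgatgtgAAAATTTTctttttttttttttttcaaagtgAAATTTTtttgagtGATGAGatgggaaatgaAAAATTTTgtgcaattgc
NOC2, chrXV:727352-727406, plus strand: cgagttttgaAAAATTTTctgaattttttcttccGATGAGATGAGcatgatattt
NOP1, chrIV:427109-427175, plus strand: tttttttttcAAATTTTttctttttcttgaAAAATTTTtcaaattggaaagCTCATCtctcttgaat
RRN3, chrXI:208033-208088, plus strand: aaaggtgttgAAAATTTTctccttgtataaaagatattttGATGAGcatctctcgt
IMP4, chrXIV:485450-485496, plus strand: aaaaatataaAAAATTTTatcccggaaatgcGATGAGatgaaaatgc
NOP16, chrV:156634-156713, plus strand: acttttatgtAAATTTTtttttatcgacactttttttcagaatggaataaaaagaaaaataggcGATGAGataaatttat

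GATGAG stood before 53 of the 57 members (93.0%, 95% exact Clopper-Pearson interval 83.0% to 98.1%), against 1148 of 6007 nuclear coding genes (19.1%). AAAATTT stood before 55 members (96.5%), against 24.4% of all these genes. Both cores were present before 51 members (89.5%) but before 452 of the 6007 genes (7.52%), and no member lacked both, as 3846 of the 6007 genes did. The longer PAC form GCGATGAG was found before 34 members and 4.05% of all genes, and the longer RRPE form AAAAATTTT before 39 members and 7.34% of all genes. UTP15, UTP4, UTP22 and NSA1 had no GATGAG in this window, and RRP9 and MAK5 had no AAAATTT. Overlapping matches were counted, an AAAATTTT holding 2 matches, and windows of neighbouring genes can overlap. Matches are letters in a window and not bound sites.

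The matches also lay in a narrow band. Of 89 GATGAG matches before members, 87.6% began between 50 and 200 bases upstream of the start codon, with a median of 120 bases. Of the 1364 matches before all genes, 63.6% did so, with a median of 146. For AAAATTT the share was 86.0% of 143 matches before members (median 138 bases) and 65.7% of 2343 matches before all genes (median 148). In these stretches, RRPE letters precede PAC letters in NOP13, NOC2, NOP1, RRN3, IMP4 and NOP16, while NSA2 carries PAC letters on both sides of RRPE letters and NOP56 the reverse. Both the member whose mean was most reduced, NOP13, and the member whose mean was most increased, NOP16, hold 1 PAC and 1 RRPE core. Whether the letters go with the size or direction of the change was not tested.

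**Figure D1:**
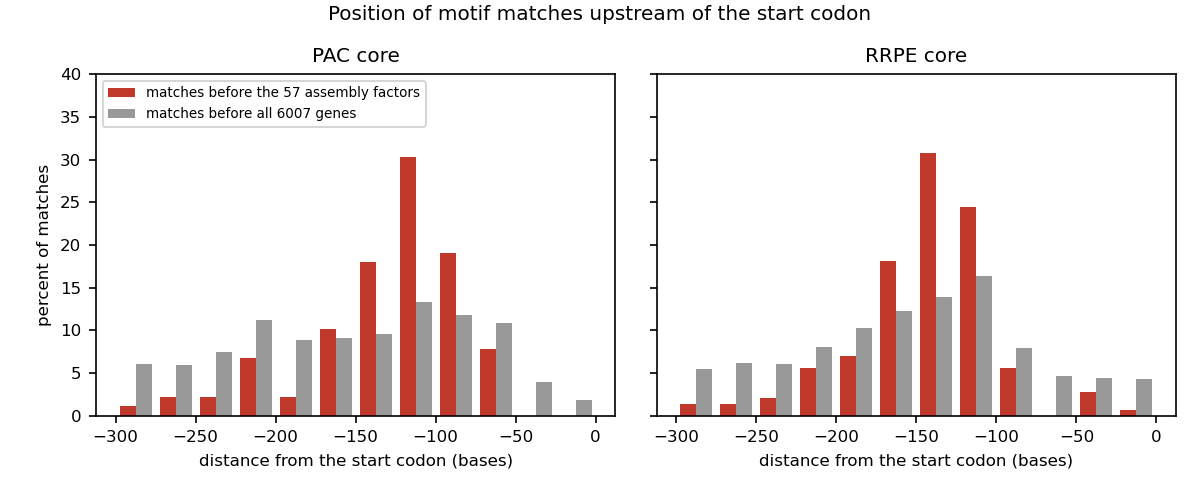
Share of all motif matches (vertical axis, percent) in bins by distance from the start codon (horizontal axis, bases), for the PAC core on the left and the RRPE core on the right. Red bars are matches before the 57 assembly factors and grey bars matches before all 6007 nuclear coding genes; the red bars pile up around the medians of 120 and 138 bases upstream.

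The authors deposited a mean normalised read count per strain, which is the mean of both libraries after each was divided by a size factor. Reads of the single libraries were recovered from these means for 6136 features and for all 57 members. Library A of each strain is the one with the larger size factor, and these letters are not the labels' replicate numbers. Over the 6136 features the libraries held 9663095 and 7071808 reads in the deletion strain and 10813277 and 9214396 in the parent. The members' own reads ranged from 48 (NOP13, deletion library B) to 9315 (NOP16, same library), with medians of 282 and 235 in deletion libraries A and B and 404 and 406 in parental libraries A and B. YGP1 itself, which encodes a secreted glycoprotein, had a mean of 18171 in the strain labelled as its deletion, against 62470 in the parent (29.1%; authors' deposited table, adjusted p = 2.88e-08). A total does not show which part of a gene its reads cover, so the check of the label is incomplete. In these bulk samples, fewer cells expressing a gene and less RNA per cell cannot be told apart.

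Most assembly factors had a lower mean in the deletion strain, and a minority passed the test. The strain mean was lower for 52 of 57 members, against 48.3% of all listed features, and the median log2 fold change of the members was -0.67, against 0.04 for all features. By the authors' call (adjusted p below 0.05) 11 members fell and 0 rose in the authors' deposited table, where 10.3% of all features were called lower and 9.65% higher. The 11 are NOP13, NSA2, NOC2, YTM1, BRX1, NOP12, UTP6, UTP13, NOP2, NOP15 and RRN3. At an unadjusted p below 0.05 in the authors' deposited table the counts were 22 lower and 0 higher, against 16.6% and 15.3% of all features. The largest falls were of moderate size: NOP13 stood at 35.8% of the parental mean, NSA2 at 37.0% and NOC2 at 42.4%.

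In single libraries, the deletion values lay below both parental values for 40 members, above both for 2 (IMP4 and NOP16) and among them for 15. Over all recovered features these separations took 32.8% and 33.3%. Limma, which fits a linear model per feature and shares the spread across features, was applied to log2(value + 1) of the 4 recovered libraries and adjusted over 6068 features. It called 22 members lower and 1 higher (NOP16), against 14.8% and 13.9% of all features. All 11 of the authors' calls were among them, and the fit rests on the same libraries. Limma fits with 1 library left out keep a single library in a strain, so their calls cannot be compared and only effect sizes are given. The members' median log2 fold change in limma was -0.65 with all 4 libraries. It was -0.59 when deletion library A was dropped and -0.64 when deletion library B was. Dropping parental library A gave -0.83, and dropping parental library B gave -0.41. Without the intensity trend 5 members were called lower (5.27% of all features). The authors' own test could not be refitted.

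**Figure D2:**
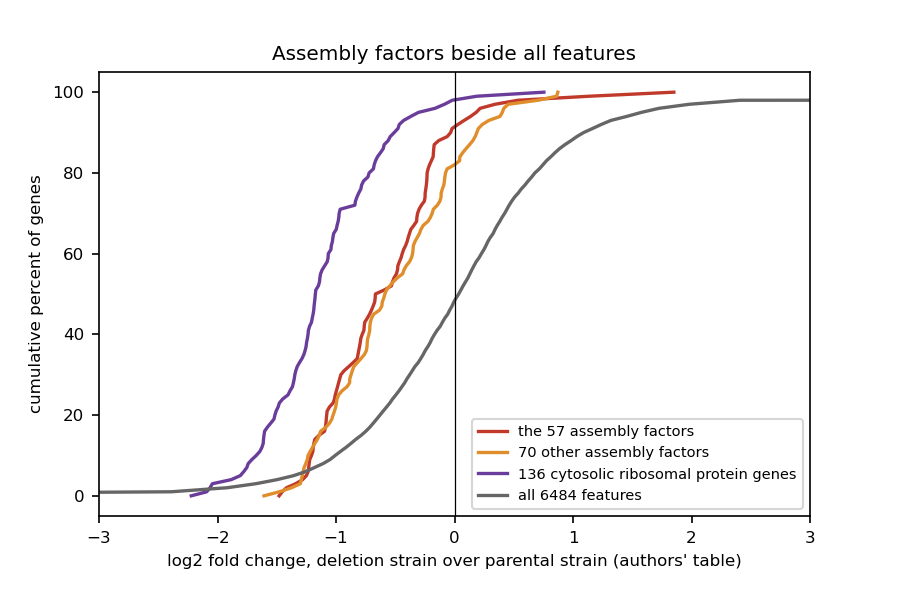
Cumulative percent of genes (vertical axis) by log2 fold change of the deletion strain over the parent in the authors' deposited table (horizontal axis). The curve of the 57 assembly factors lies left of that of all 6484 features (medians -0.67 and 0.04), close to that of 70 other assembly factors and right of that of 136 cytosolic ribosomal protein genes (median -1.17).

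**Figure D3:**
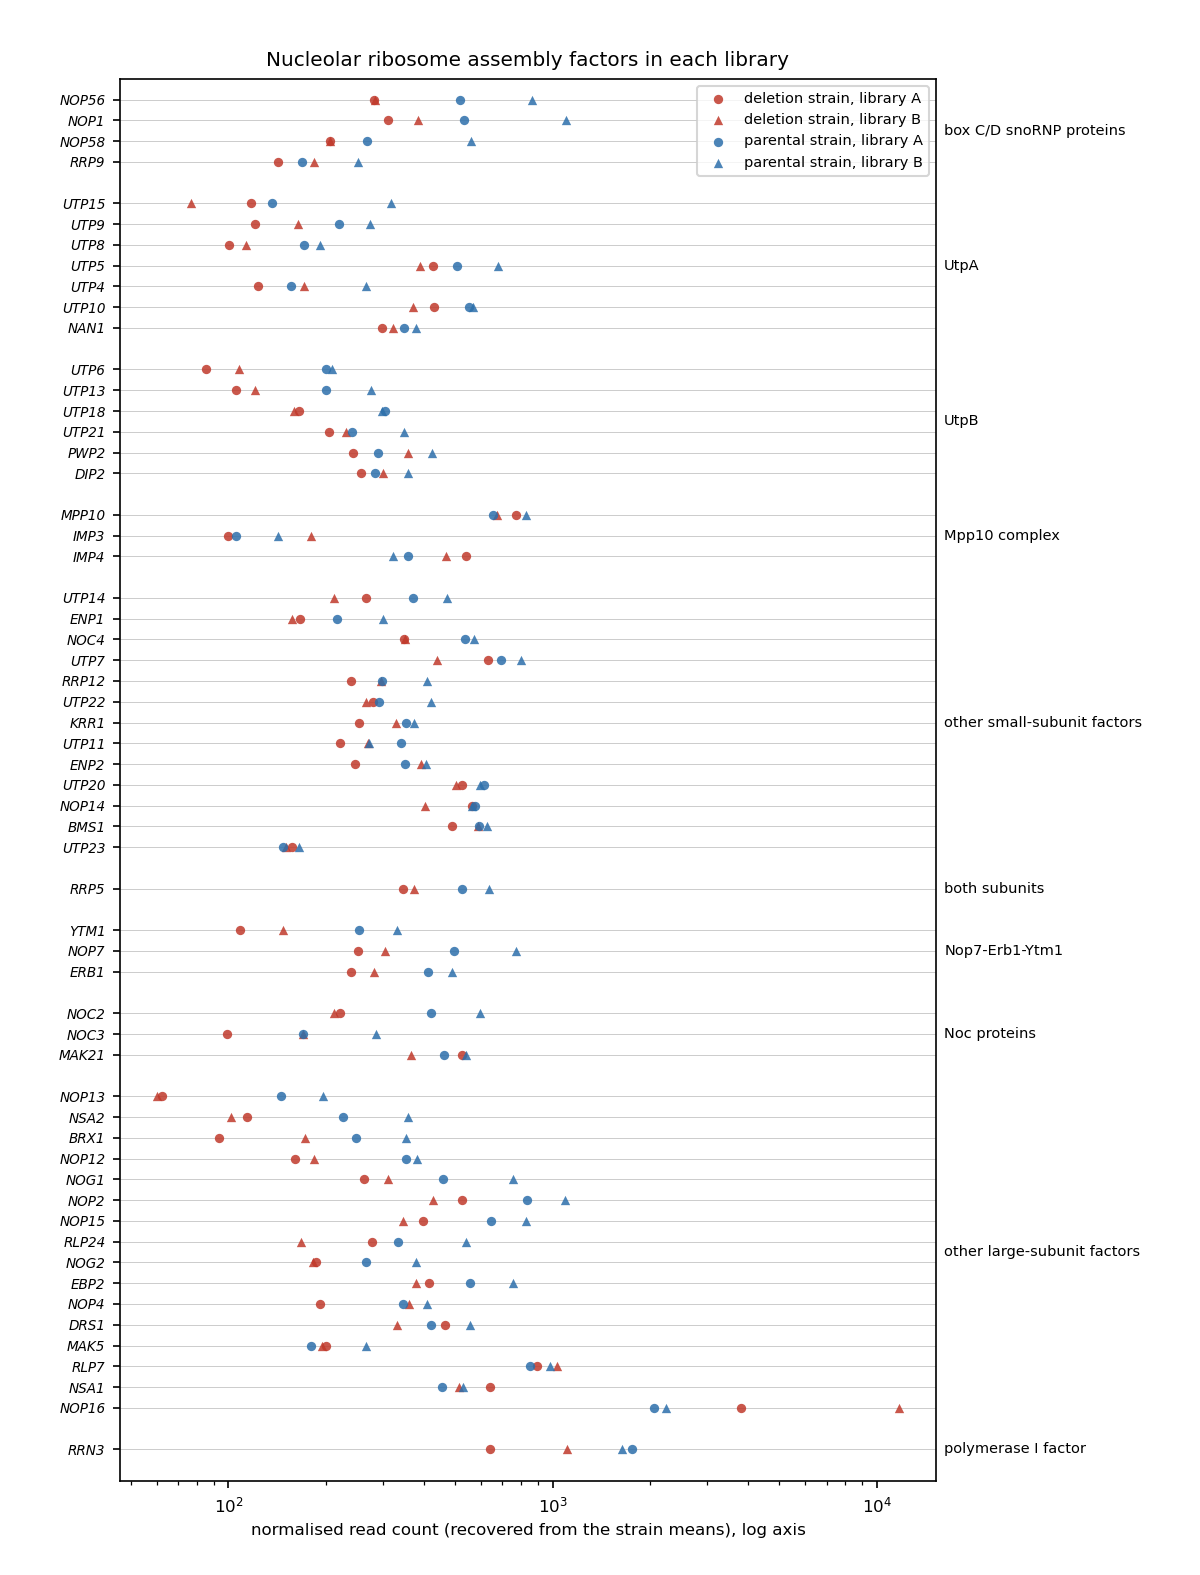
Normalised read count (horizontal log axis) of each of the 57 members in the 4 libraries, with genes grouped by complex and ordered by fold change within it; red marks are deletion libraries, blue marks parental libraries, circles library A and triangles library B. For 40 members both red marks lie left of both blue marks, and NOP16 and IMP4 show the opposite order.

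The core proteins of box C/D small nucleolar ribonucleoproteins, the particles that guide ribose methylation of ribosomal RNA and include U3, had low means in the deletion strain but parental libraries that lay far apart. NOP1 (YDL014W), yeast fibrillarin and the methyltransferase itself, had 310.2 and 384 normalised reads in deletion libraries A and B, against 532 and 1097 in parental libraries A and B. Its scaffold partner NOP56 (YLR197W) had 281 and 282 in the deletion libraries, against 518 and 865 in the parental ones. NOP58 (YOR310C), the other scaffold protein, had 205 and 206 in the deletion libraries and 268 and 558 in the parental libraries. For all 3 the strains did not overlap, with the deletion lower as in 32.8% of all recovered features, and parental library B was the highest. None of the 3 passed the authors' threshold: the authors' deposited table gives NOP1 a log2 fold change of -1.23 (adjusted p = 0.261), NOP56 one of -1.30 (adjusted p = 0.0765) and NOP58 one of -1.01 (adjusted p = 0.373). RRP9 (YPR137W), a protein particular to the U3 particle, overlapped between strains, with 142 and 183 in the deletion strain, against 169 and 251 in the parent. Of these 4 genes 0 were called by the authors' test, 1 had an unadjusted p below 0.05 in the authors' deposited table and limma called 2, NOP56 and NOP1. The matching shares of all features called lower were 10.3%, 16.6% and 14.8%.

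UtpA, the complex of the processome that binds the start of the precursor, had 7 members measured, with 7 lower means, a median log2 fold change of -0.53 and 0 calls in the authors' deposited table (1 at an unadjusted p below 0.05, 0 by limma). Lower means were seen in 48.3% of all features. Calls of lower took 10.3% of all features by the authors, 16.6% by their unadjusted p and 14.8% by limma. UTP15 (YMR093W) had the lowest ratio, at 117 and 76.6 in the deletion libraries and 136 and 317 in the parental libraries, but parental library A lay within 1.16-fold of deletion library A. UTP8 (YGR128C) had 100.4 and 113 in the deletion strain, against 171 and 191 in the parent, and UTP9 (YHR196W) 121 and 164 in the deletion strain, against 219 and 274 in the parent. In both genes the deletion values lay below the parental values, by 1.51-fold for UTP8 and 1.33-fold for UTP9 between the nearest libraries. UTP5 (YDR398W) and UTP10 (YJL109C) had both deletion values below both parental values, with log2 fold changes of -0.53 and -0.48, while the libraries of UTP4 (YDR324C) overlapped between strains (-0.52). NAN1 (YPL126W), also called UTP17, differed by a smaller amount, with 297 and 323 in the deletion strain and 348 and 379 in the parent.

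In UtpB, a complex that acts beside UtpA and contacts U3, 2 of 6 members (33.3%) fell in the authors' deposited table, beside 10.3% of all features. UTP6 (YDR449C) had 85.3 and 108 in the deletion libraries, against 200.0 and 209 in the parental libraries (-1.08 in log2 fold change with an adjusted p of 0.0337, from the authors' deposited table). UTP13 (YLR222C), a WD-repeat protein, had 106 and 120.5 in the deletion strain, against 200.0 and 276 in the parent (authors' deposited table: log2 fold change -1.07, adjusted p = 0.0324). In both genes every deletion library lay well below every parental library, by at least 1.85-fold for UTP6 and 1.66-fold for UTP13. UTP18 (YJL069C) showed tight pairs, with 165 and 159 in the deletion strain and 304 and 297 in the parent, yet missed the authors' threshold (authors' deposited table, adjusted p = 0.0639), though limma called it (adjusted p = 0.0237). The WD-repeat proteins PWP2 (YCR057C) and DIP2 (YLR129W) overlapped between strains, with log2 fold changes of -0.25 and -0.21, and UTP21 (YLR409C) differed by 1.04-fold between its nearest libraries.

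The 3 proteins of the Mpp10 complex, which brings U3 and the precursor RNA together, had means close to or above the parent. MPP10 (YJR002W) had 771 and 673 in the deletion libraries and 655 and 830.2 in the parental libraries, and IMP3 (YHR148W) had 99.6 and 179 in the deletion libraries and 106 and 142 in the parental libraries, both genes overlapping between strains. IMP4 (YNL075W) was higher in each deletion library, with 541 and 469 in the deletion strain, against 357 and 321 in the parent, but did not pass (authors' deposited table: log2 fold change 0.58, adjusted p = 0.197) in either test (limma adjusted p = 0.082). When the recovered reads were scaled by their totals, IMP4 passed in limma with a log2 fold change of 0.69. Under that scaling MPP10 and UTP23 (YOR004W) changed sign, to 0.08 and 0.10.

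Among the 13 other small-subunit factors 0 passed in the authors' deposited table (2 at an unadjusted p below 0.05, 2 by limma), although all 13 means were lower (median log2 fold change -0.32). The shares of all features called lower were 10.3% by the authors, 16.6% by their unadjusted p and 14.8% by limma, and 48.3% had a lower mean. UTP14 (YML093W), which activates a helicase of the processome, had 265 and 212 in the deletion libraries, against 371 and 472 in the parental libraries (limma log2 fold change -0.82 ± 0.25 SE). NOC4 (YPR144C), the partner of NOP14 (YDL148C), had 347 and 351 in the deletion strain, against 537 and 572 in the parent (limma log2 fold change -0.67 ± 0.22 SE), and these were the members of this group that limma called. Together with NOP14, UTP20 (YBL004W), BMS1 (YPL217C) and UTP23 had the log2 fold changes closest to 0 in this group. UTP20 had 525 and 503 in the deletion strain and 616 and 598 in the parent. The GTPase BMS1 had 489.8 and 589 in the deletion strain and 593 and 629 in the parent, and UTP23 had 157 and 151 in the deletion strain and 147 and 165 in the parent. The remaining members, UTP7 (YER082C), UTP11 (YKL099C), UTP22 (YGR090W), NOP14, KRR1 (YCL059C), ENP1 (YBR247C), ENP2 (YGR145W) and RRP12 (YPL012W), had log2 fold changes between -0.67 (ENP1) and -0.23 (NOP14). RRP5 (YMR229C), which serves the assembly of both subunits, had 345 and 374 in the deletion strain, against 525 and 638 in the parent with an authors' deposited table value of 0.11 for the adjusted p and a limma adjusted p of 0.0438.

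**Figure D4:**
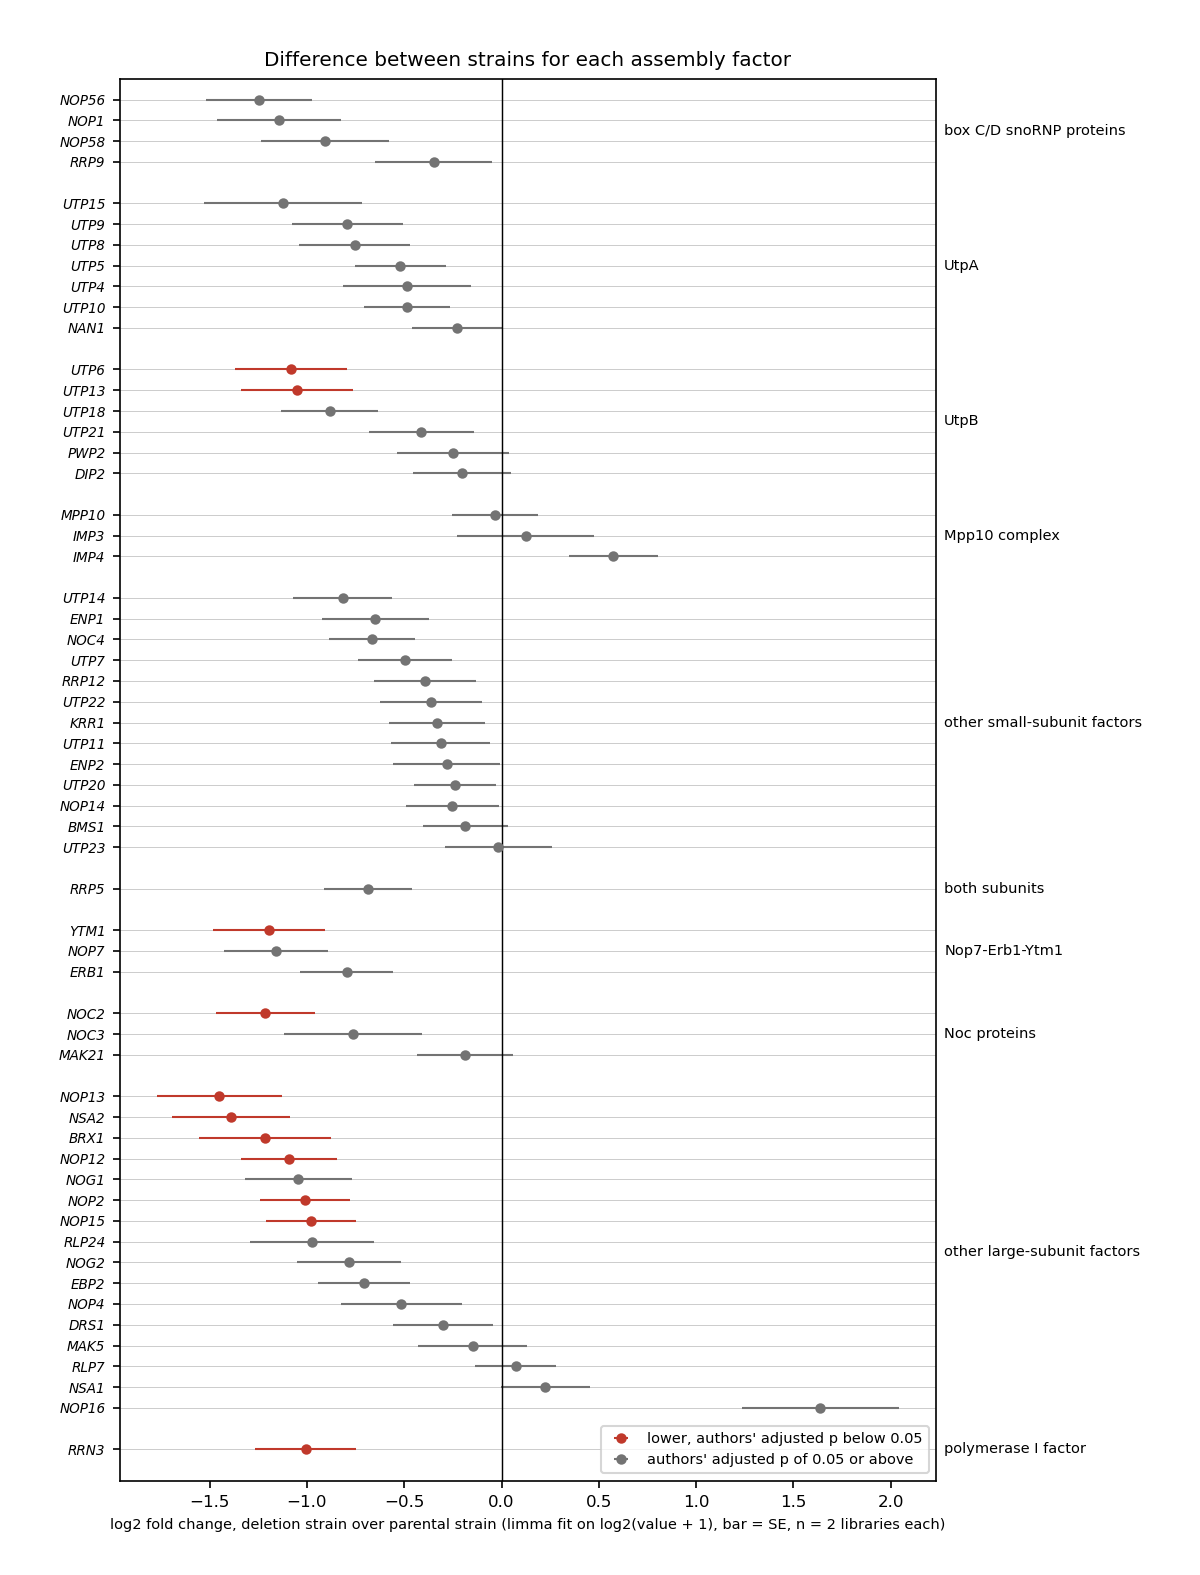
Log2 fold change of the deletion strain over the parent for each member from the limma fit (horizontal axis, bars are SE, 2 libraries per strain), grouped by complex; red points are the 11 members called lower in the authors' deposited table. The Mpp10 complex, RLP7, NSA1 and NOP16 lie near or right of 0, while most large-subunit factors lie left of -0.5.

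Of the 22 large-subunit factors 8 fell in the authors' deposited table, with a median log2 fold change of -0.89, and of the 33 small-subunit factors 2 fell, with a median of -0.43. These are 36.4% of the large-subunit and 6.06% of the small-subunit factors, beside 10.3% of all features. The difference between these classes was not tested. NOP13 (YNL175C), an RNA-binding protein of the nucleolus, had 62.2 and 60.2 in the deletion libraries, against 145 and 196 in the parental libraries (-1.48 in log2 fold change with an adjusted p of 0.00763, from the authors' deposited table). NOP12 (YOL041C), another RNA-binding protein, had 161 and 183 in the deletion strain, against 353 and 381 in the parent (authors' deposited table: log2 fold change -1.09, adjusted p = 0.0127). The nearest libraries of different strains were 2.34-fold apart for NOP13 and 1.93-fold apart for NOP12, wider than the gap between libraries of one strain in either gene. NSA2 (YER126C), an assembly factor of nuclear large-subunit precursors, had 114 and 102 in the deletion strain and 225 and 357 in the parent (-1.43 in log2 fold change with an adjusted p of 0.0318, from the authors' deposited table).

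NOP7 (YGR103W), ERB1 (YMR049C) and YTM1 (YOR272W) form one complex that acts on early large-subunit precursors. All 3 had both deletion values below both parental values, as did 32.8% of all recovered features. YTM1 had 108 and 147 in the deletion libraries, against 253 and 332 in the parental libraries, and fell (authors' deposited table: log2 fold change -1.20, adjusted p = 0.0089). NOP7 had 251 and 305 in the deletion strain, against 496 and 772 in the parent and lay just outside the authors' threshold (-1.19 in log2 fold change with an adjusted p of 0.0501, from the authors' deposited table). ERB1 had 238 and 281 in the deletion strain, against 413 and 489.8 in the parent (authors' deposited table: log2 fold change -0.80, adjusted p = 0.0666). Limma called all 3, with log2 fold changes of -1.19 ± 0.29, -1.16 ± 0.27 and -0.80 ± 0.24 (SE) for YTM1, NOP7 and ERB1, so the spread among the members of the complex was of the size of their errors.

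The Noc proteins differed more among themselves. NOC2 (YOR206W), which pairs with both MAK21 (YDR060W) and NOC3 (YLR002C), had 220.4 and 212 in the deletion libraries and 422 and 599 in the parental libraries and fell (-1.24 in log2 fold change with an adjusted p of 0.00778, from the authors' deposited table). MAK21 overlapped between strains, at 524 and 366 in the deletion strain, against 461 and 539.6 in the parent. NOC3 had 98.7 and 169 in the deletion libraries and 169.7 and 285 in the parental libraries, so that deletion library B and parental library A were almost equal.

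Further falls among large-subunit factors concerned BRX1 (YOL077C), NOP2 (YNL061W) and NOP15 (YNL110C). NOP2, a methyltransferase that modifies cytosine in ribosomal RNA, had 524 and 428 in the deletion libraries, against 835 and 1093 in the parental libraries (authors' deposited table: log2 fold change -1.02, adjusted p = 0.0112). The RNA-binding protein NOP15 had 397 and 345 in the deletion strain, against 647 and 827 in the parent (-0.99 in log2 fold change with an adjusted p of 0.0163, from the authors' deposited table). BRX1, of the same protein family as IMP4, had 93.3 and 172 in the deletion strain, against 248 and 352 in the parent (authors' deposited table: log2 fold change -1.18, adjusted p = 0.0365). Its deletion libraries lay 1.84-fold apart, the widest gap among the 11 called members. The GTPase genes NOG1 (YPL093W) and NOG2 (YNR053C) did not pass the authors' threshold, while limma called NOG1 (adjusted p = 0.0177) but not NOG2 (adjusted p = 0.0512). NOG1 had 262 and 310.0 in the deletion strain and 459.7 and 754 in the parent, and NOG2 had 186 and 182 in the deletion strain and 265 and 379.8 in the parent. NOG2 contains the small nucleolar RNA gene SNR191 on the same strand in R64, so its reads may belong to either, and it is the only member that overlaps another gene there. EBP2 (YKL172W) and RLP24 (YLR009W), a placeholder for the ribosomal protein it resembles, had both deletion values below both parental values but did not pass the authors' threshold (authors' deposited table, adjusted p = 0.103 and 0.249). Limma called both (adjusted p = 0.0456 and 0.0428). NOP4 (YPL043W) and the helicase genes DRS1 (YLL008W) and MAK5 (YBR142W) overlapped between strains. RLP7 (YNL002C) and NSA1 (YGL111W) had means slightly above the parent, with log2 fold changes of 0.07 and 0.23 and overlapping libraries.

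RRN3 (YKL125W), which makes RNA polymerase I competent to start transcription of the ribosomal RNA genes, fell. It had 643 and 1103 in deletion libraries A and B, against 1756 and 1630.3 in parental libraries A and B (-0.96 in log2 fold change with an adjusted p of 0.00469, from the authors' deposited table). Its deletion libraries differed by 1.72-fold while its parental libraries were alike. Each limma fit without 1 library leaves a strain with a single library, which is assumed to vary like the other strain's pair. Only effect sizes are given for these 4 fits. The log2 fold change of RRN3 lay between -1.40 (deletion library B left out) and -0.62 (deletion library A left out).

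NOP16 (YER002W), a protein of early large-subunit particles, was higher in the deletion libraries, which lay far apart. It had 3821 and 11690.4 in deletion libraries A and B, against 2056 and 2244 in parental libraries A and B. The deletion libraries lay 3.06-fold apart, and both were above the parental values. The authors' test did not call it (authors' deposited table: log2 fold change 1.85, adjusted p = 0.362), whereas limma did (log2 fold change 1.64 ± 0.40 SE, adjusted p = 0.0134). Without NOP16 the median log2 fold change of the members stayed at -0.67. Its neighbour on the opposite strand in R64, the mannose phosphate isomerase gene PMI40, had 1428 and 1324 in the deletion libraries and 871 and 674 in the parental libraries and rose (0.83 in log2 fold change with an adjusted p of 0.0294, from the authors' deposited table). FMP52, the next gene beyond PMI40, rose as well, with means of 25654 in the deletion strain and 9893 in the parent (authors' deposited table: log2 fold change 1.37, adjusted p = 3.4e-05). MNN1, on the other side, had 423 and 331 in the deletion libraries and 274 and 237 in the parental libraries. IRC22, the next gene beyond MNN1, had 488 and 496 in the deletion libraries and 467 and 596 in the parental libraries, which overlap. These neighbours were looked up after the NOP16 values were seen. Whether reads of a neighbour entered its count was not tested.

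Levels per length varied widely among the members. Per kilobase of coding length, the median member had 134 normalised reads in the deletion strain and 211 in the parent, against 700.4 and 699 for all features with a coding length. NOP16 was the most abundant per kilobase, at 11143 in the deletion strain, against 3089 in the parent. NOP15 had 559.9 in the deletion strain, against 1111 in the parent, and RLP7 had 996 in the deletion strain, against 947 in the parent. The lowest parental level was that of UTP20, which had 68.7 in the deletion strain, against 81.1 in the parent. The lowest level in the deletion strain was that of UTP13, at 46.1, against 97.0 in the parent. UTP8 was next to the lowest in both strains, with 49.8 in the deletion strain, against 84.4 in the parent. RRN3 ranked among the abundant members, at 463 in the deletion strain, against 899 in the parent. These are levels of strain means and carry no spread.

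The members also moved together between the parental libraries. Parental library B exceeded parental library A for 51 of 57 members, against 49.1% of all recovered features, with a median log2 ratio of B over A of 0.35 (all features 0.00). Between the deletion libraries B exceeded A for 32 members (median log2 ratio 0.12), against 42.5% of all features (median -0.08). Parental library B held the highest of the 4 values for 47 members, and a deletion library held the lowest for 50. The shares of all features with these orders were not computed, so these counts are not read as unusual. Leaving out parental library B gave a median log2 fold change of -0.42, and leaving out parental library A gave -0.83. Without deletion library A or B it was -0.60 or -0.66. Measured from each gene's own mean over the libraries, the median member stood at -0.36 and -0.29 in deletion libraries A and B and at 0.13 and 0.46 in parental libraries A and B. What set the parental libraries apart was not tested.

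**Figure D5:**
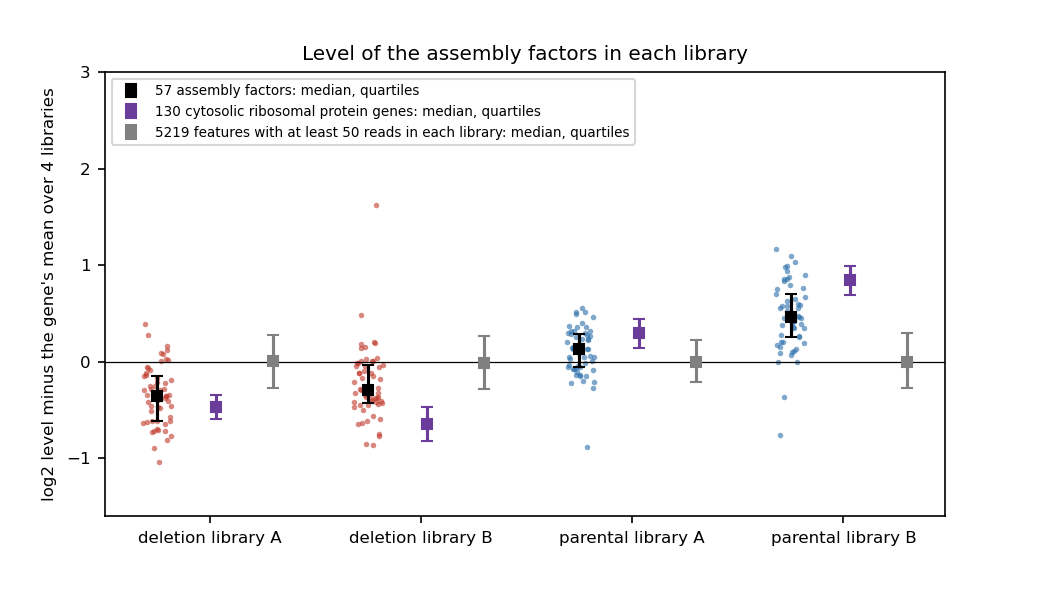
Log2 level of each member minus its own mean over the 4 libraries (vertical axis) in each library (horizontal axis); dots are the 57 members, red in deletion and blue in parental libraries, and squares with bars are medians with quartiles for the members, for 130 cytosolic ribosomal protein genes and for 5219 features, each of the last 2 sets limited to genes that reach 50 reads in every library. The members' medians are -0.36, -0.29, 0.13 and 0.46 from left to right, and those of the 5219 features lie within 0.02 of 0.

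Further genes of the pathway also had mostly lower means. Of 28 further small-subunit factors 6 (21.4%) fell and 0 rose in the authors' deposited table (9 lower and 0 higher at an unadjusted p below 0.05, 8 and 0 by limma), with a median log2 fold change of -0.56. Over all features 10.3% were called lower and 9.65% higher. RRP3, a helicase gene, had 89.8 and 62.8 in the deletion libraries, against 194 and 271 in the parental libraries (-1.61 in log2 fold change with an adjusted p of 0.00189, from the authors' deposited table). LCP5 and EMG1, a methyltransferase gene, had log2 fold changes of -1.27 and -1.04 (authors' deposited table, adjusted p = 0.0079 and 0.0324). Of 42 further large-subunit factors 9 (21.4%) fell and 1 (2.38%) rose in the authors' deposited table, with a median of -0.64. SSF1, RRB1 and RRS1 had the largest called falls, with log2 fold changes of -1.29, -1.28 and -1.24 (authors' deposited table, adjusted p = 0.0299, 0.00333 and 0.00474). RRS1, which helps to bring in the 5S particle, had 156 and 169 in the deletion libraries and 348 and 419 in the parental libraries. The helicase gene SPB4 was the one that rose, with 1539.5 and 1529 in the deletion strain, against 904 and 789.7 in the parent (authors' deposited table: log2 fold change 0.86, adjusted p = 0.0232). Among 5 box H/ACA and shared snoRNP protein genes, whose H/ACA particles guide pseudouridylation, NHP2 fell, with 442 and 422 in the deletion strain, against 668 and 926 in the parent (-0.88 in log2 fold change with an adjusted p of 0.0339, from the authors' deposited table).

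RRN3 works with RNA polymerase I and further initiation factors. Of 15 such genes 0 fell and 1 (6.67%) rose in the authors' deposited table, neither share being above the 10.3% and 9.65% of all features, with a median log2 fold change of -0.16 (0 lower and 2 higher at an unadjusted p below 0.05 in the authors' deposited table, and 1 lower and 1 higher by limma). Lower means were found for 9 of the 15 genes, against 48.3% of all listed features, so the list was mixed. In single libraries 5 genes separated lower and 5 higher, beside 32.8% and 33.3% of all recovered features. The 7 subunit genes in the list all had lower means, with log2 fold changes from -1.57 for RPA43 to -0.45 for RPA34. Of these 7 genes 0 had an unadjusted p below 0.05 in the authors' deposited table. The largest subunit, RPA190, had 552 and 704 in the deletion libraries, against 698 and 1182 in the parental libraries. RRN11, of the core factor, rose, with 383 and 333 in the deletion strain, against 171 and 104 in the parent (authors' deposited table: log2 fold change 1.38, adjusted p = 0.00181).

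Among 11 genes for PAC and RRPE binding proteins and growth regulators 4 (36.4%) fell and 0 rose in the authors' deposited table. Over all features 10.3% were called lower and 9.65% higher. By the authors' unadjusted p below 0.05 the list had 5 lower and 1 higher, beside 16.6% and 15.3% of all features. Limma called 4 lower and 0 higher among 10 tested, beside 14.8% and 13.9% of all features. CRF1, a corepressor of ribosomal protein genes, had 1428 and 911 in the deletion libraries, against 3528 and 2896 in the parental libraries (-1.46 in log2 fold change with an adjusted p of 2.86e-05, from the authors' deposited table). RAP1, a DNA-binding activator of ribosomal protein genes, had 1074 and 1313 in the deletion strain, against 2303 and 2362 in the parent, and SFP1, an activator of assembly factor and ribosomal protein genes, 1604 and 1209 in the deletion strain, against 2644 and 2742 in the parent (authors' deposited table: log2 fold changes -0.97 and -0.94, adjusted p = 0.00557 and 0.0126). STB3, which binds RRPE, was the fourth that fell (authors' deposited table: log2 fold change -0.89, adjusted p = 0.0074). The PAC-binding repressors did not pass: TOD6 had 889 and 1524 in the deletion libraries and 1641 and 1971 in the parental libraries, and the authors' deposited table gives DOT6 a log2 fold change of -0.22.

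Cytosolic ribosomal protein genes, which are regulated with the assembly factors in growing yeast, had a lower median still. Of 136 such genes 67 fell and 0 rose in the authors' deposited table, with a median log2 fold change of -1.17 beside -0.67 for the assembly factors (1 higher at an unadjusted p below 0.05 in the authors' deposited table, and 1 higher by limma). RPS3 and RPL8A were among those that fell, with log2 fold changes of -2.10 and -2.08 (authors' deposited table, adjusted p = 5.09e-10 and 0.0126). Several of these genes have near-identical copies, between which reads can be split. Parental library B exceeded parental library A for 133 of 136, against 49.1% of all recovered features. This list too thus differed between the parental libraries (median log2 ratio 0.57).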

How the data were processed

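RNA of 4 cultures, 2 per strain, was sequenced, and the submitters deposited 1 table for the series. Per the file headers it holds, for 6484 features, the authors' mean normalised read count of each strain (a signal scaled by library size factors), the log2 fold change of deletion over parent, and the authors' p-value and adjusted p-value. No aligner, counting rule, strandedness or test is named in the sources used here. The deposited log2 fold change equals the log2 ratio of the deposited means.

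The design had assumed counts per library. Whole reads were instead recovered from each mean as the one pair of whole numbers that, times the 2 library steps, returns it; 6179 features (95.3%) in the deletion strain and 6325 (97.5%) in the parent had a single solution. Recovered values were divided by the size factors (1.13 and 0.797 in the deletion libraries A and B, 1.16 and 0.964 in the parental libraries A and B). The main calls are the authors' adjusted p below 0.05. Limma 3.58.1 (R 4.3.3) was fitted to log2(value + 1) with an intensity trend over 6068 features with a mean of at least 1, with Benjamini-Hochberg adjustment, after it was tested on simulated data. Other steps used Python 3.11.15, pandas 2.3.3 and numpy 2.4.6. An exact permutation test of 2 against 2 libraries cannot go below p = 0.333 and was not used. Only 2 libraries stand for a strain, and limma p-values rest on their spread together with the spread shared across features. An interval on a motif share covers counting error only.

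Promoters are the 300 bases before each start codon in R64, whose annotation matched 5869 of 6484 listed names. Members, gene lists and tests were chosen with earlier results of these data known. Named are all members, with values by library for the 5 largest changes each way, those past the authors' threshold, NOP1, NOP56, NOP58 and RRN3, and of each other list the 3 largest changes past that threshold, of which 1 ribosomal protein gene is not reported here; further members with values by library were added to show each complex. Of 137 cytosolic ribosomal protein genes, RPL22A was not analysed here.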

Additional observations from a re-analysis of the deposited data

How the results depend on the processing

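The count of 11 lower members fell to 4 at an adjusted p below 0.01 and was 9 with a required 2-fold change, both in the authors' deposited table, and 11 without NOG2. The shares of all features at the stricter settings are not given here. The median log2 fold change of the members was -0.60 without NOG2, -0.70 after centring on all features, -0.55 with recovered reads scaled by totals and -0.67 without NOP16, a setting chosen after seeing the data. With 1 library left out it lay between -0.83 (without parental library A) and -0.42 (without parental library B). Scaling by totals shifted the median of all features by 0.12 on the log2 scale, from 0.01 to 0.13, and relative to it the members stood at -0.66 under both scalings. Limma called 23 members, 23 with a pseudocount of 0.5 or 4 or with no filter, 24 with a mean of at least 10, 18 with total scaling and 5 without the intensity trend. In limma fits with 1 library left out, the members' median log2 fold change lay between -0.83 (without parental library A) and -0.41 (without parental library B). Calls of these fits are not compared, because a lone library is assumed to vary like the other strain's pair. The cause of the changes in the limma count was not tested. The share of members with the longer GCGATGAG was 59.6%, against 93.0% for GATGAG. The lowest member count was 48 reads, which limits the precision of single genes. No paired analysis was possible because the deposited columns are strain means that carry no replicate numbers, and the recovered libraries are ordered by size factor.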
